A study of Gallus gallus with 6 samples.

Results

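The proteasome genes of the chicken liver were taken as all genes whose name in the deposited expression table begins with PSM, a letter from A to G and a number. This rule found 38 of the 14078 genes, under 36 names, because PSMD4 and PSMD12 were each listed for 2 genes. One of the 38, PSMC3IP, is a cofactor of recombination named for binding PSMC3 and is no part of the proteasome, which left 37 subunits and regulators. Its mean FPKM was 1.73 ± 0.615 in L20 and 2.35 ± 0.526 in L30 (SD, n = 3 each), the groups overlapped, and it is left out of all counts that follow. The 37 genes comprised 12 of the core, 17 of the regulatory particle and 8 chaperones, activators or inhibitors.

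The livers came from female Lushi chickens (Lushi green shell chicken), a Chinese domestic breed of layer kept in cages in a shared environment with free access to feed. The L20 group comprised 3 juvenile hens of 20 weeks and the L30 group 3 laying hens of 30 weeks, with 1 RNA-Seq library per hen. All hens were untreated, so age and the onset of lay differ between the groups together and cannot be told apart. The comparison asks how the level of each transcript in the liver differed between these physiological stages.

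The proteasome degrades proteins that carry a chain of ubiquitin. Its core is a barrel in which rings of beta subunits, some of them proteases, lie between rings of alpha subunits that gate the entrance. The regulatory particle sits on the end of the barrel. Its base holds ATPases that unfold the substrate and thread it into the core, and its lid holds scaffold subunits and the deubiquitinase PSMD14, which removes the ubiquitin chain. Further proteins assemble the core and the base, and others open or block the barrel. In the liver the complex is the main route by which cytosolic, nuclear and misfolded secretory proteins are broken down.

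Levels are given as FPKM, fragments scaled by exon length and library size, in the order of hens 1, 2 and 3 of each group. The thresholds of the study were kept, but the study called genes with Cuffdiff, while limma on log2(FPKM + 1) was used here. The calls are therefore not those of the study. DE genes reached a p of 0.05 before adjustment. SDE genes also reached 0.05 after Benjamini-Hochberg adjustment and had L30 means that were 2 times the L20 means or more, or 0.5 times or less. Fold changes are L30 over L20 on that log2(FPKM + 1) scale, and "rose" and "fell" are kept for DE genes. All 37 genes passed the filter of a mean FPKM of at least 1, as did 9732 genes in all. The reads recovered from the table summed to between 13764761 and 21570437 per hen. ALB, the hepatocyte marker, was at an FPKM of 4260 or more in all 6 hens. The yolk protein genes APOVLDLII, VTG2 and the entry named TPRXL took 0.00348 to 0.0279% of recovered reads in the L20 hens and 14.2 to 16.7% in the L30 hens.

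More of the proteasome genes were lower in laying hens than higher. Of the 37, 10 fell, 1 rose and 26 were not DE. The share that fell was 27.0%, against 11.7% of all genes tested, and the share that rose was 1 of 37 against 11.0%. The log2 fold change was negative for 30 of the 37, against 54.7% of all genes tested. The median log2 fold change was -0.23, against -0.04 over all genes tested. In 16 of 37 genes (43.2%) all 3 L30 hens lay below all 3 L20 hens, against 16.0% of all genes tested, and in 1 all L30 hens lay above, against 14.0%. None of the 37 met the SDE rule with limma, edgeR or DESeq2, against 2.75% of all genes by limma, since no ratio of means reached 0.5 or 2, although 11 had an unadjusted p of 0.05 or less. After adjustment by limma over all genes, PSMA5 alone stayed at 0.05 or less, against 3.40% of all genes, and it did not without a filter (adjusted p = 0.0552), with median-ratio scaling (0.0516) or with the replicate block (0.118). edgeR on recovered reads also kept PSMA5 alone, where 1.54% of all genes were called lower, while DESeq2 kept 7 genes (PSMA5, PSMB3, PSMB7, PSMD2, PSMD3, PSMD6 and PSMD13), against 11.3% of all genes in either direction.

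**Figure D1:**
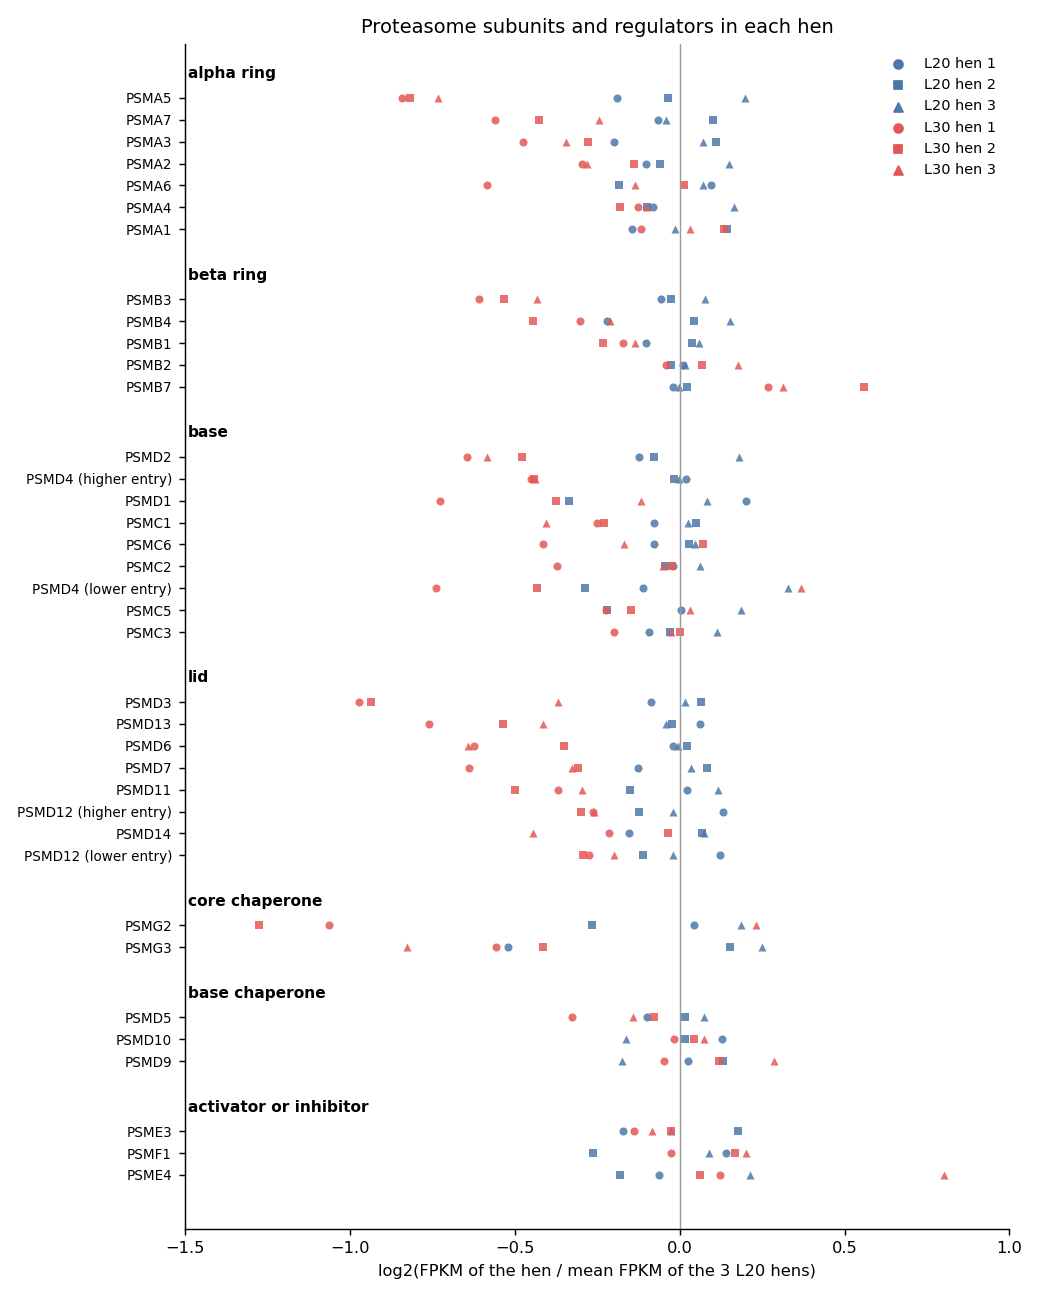
FPKM of each of the 37 genes in each hen, as the log2 ratio to the mean of the 3 L20 hens (x axis), with genes grouped by class (y axis), blue symbols for L20 hens and red symbols for L30 hens. The red symbols lie left of all blue symbols for 16 genes, 7 of them among the 8 lid entries, and right of all blue symbols for PSMB7 alone.

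The number of falling genes depended on how the libraries were scaled. The deposited FPKM already hold a scaling between libraries. Scaled instead to the total of recovered reads, an alternative added after the data were seen, 24 of the 37 fell and none rose. That scaling moved the median of all genes from -0.04 to -0.24 and the median of the 37 to -0.47, and it turned the calls of all genes from 1070 higher and 1143 lower into 527 higher and 2581 lower. The 37 genes together took 0.299 ± 0.027% of recovered reads in L20 and 0.213 ± 0.016% in L30 (SD, n = 3 each).

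The proteasome genes were expressed above most genes and varied little between hens. Their median mean FPKM was 33.6, against 6.62 over all genes tested. Within a group their median coefficient of variation was 9.30% in L20 and 8.69% in L30, against 15.3% and 16.6% over all genes tested. The spread was not compared with that of genes of similar FPKM, so it cannot be read as particular to these genes. L30 hen 1 was the lowest hen for 19 of the 37 genes, against 17.9% of all genes, and L20 hen 3 was the highest for 14, against 16.4% of all genes, but the class medians of all 3 L30 hens lay below those of all 3 L20 hens for both the core and the regulatory particle.

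The alpha ring was represented by all 7 names from PSMA1 to PSMA7. PSMA5 and PSMA7 fell, 2 of 7 against 11.7% of all genes tested, 6 of the 7 had a negative log2 fold change against 54.7%, and the median log2 fold change was -0.23. PSMA5 (ENSGALG00000000065, on the scaffold JH375456.1 of galGal4, positions 1241 to 9450) was at an FPKM of 37.4, 41.6 and 48.9 in the L20 hens and 23.8, 24.2 and 25.6 in the L30 hens. The highest L30 hen thus lay well below the lowest L20 hen. The mean fell from 42.6 ± 5.81 to 24.5 ± 0.963 (SD, n = 3), a change of -42.4%, with a log2 fold change of -0.76 (SE 0.14, limma adjusted p = 0.0465). PSMA5 was called DE without any one hen, but its adjusted p was then 0.0613 to 0.158, above the threshold each time.

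PSMA7 (ENSGALG00000027156, chromosome 20) was at 16.7, 18.7 and 17.0 FPKM in L20 and 11.8, 12.999 and 14.7 in L30, with a log2 fold change of -0.38 (SE 0.13, limma adjusted p = 0.149). The groups did not overlap, but the DE call was lost with the replicate block and without L20 hen 2, L30 hen 1 or L30 hen 2. LSM14B and SS18L1 are listed with the same span as PSMA7, so that reads may be divided between them. PSMA2, the alpha ring gene with the highest FPKM, was at 102, 106 and 122 in L20 and 89.6, 99.99 and 90.5 in L30. PSMA3 was at 78.5, 97.3 and 94.7 in L20 and 64.9, 74.4 and 71.1 in L30. Neither was DE, although every L30 hen was below every L20 hen for both. For PSMA1, PSMA4 and PSMA6 the groups overlapped, and the ratios of means were 1.01, 0.911 and 0.863.

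Of the beta ring, 5 names were listed: PSMB1, PSMB2, PSMB3, PSMB4 and PSMB7. PSMB3 fell, 1 of 5 against 11.7% of all genes tested, and PSMB7 rose, 1 of 5 against 11.0%. PSMB3 (ENSGALG00000001597, chromosome 27, 4014222 to 4017030), a non-catalytic subunit, was at 43.1, 44.1 and 47.4 FPKM in L20 and 29.5, 31.0 and 33.2 in L30. The groups were wide apart relative to their spread, with a log2 fold change of -0.51 (SE 0.12, limma adjusted p = 0.0765), and the DE call held without any one hen. PSMB7 (ENSGALG00000001103, chromosome 17, 9374896 to 9394545), which carries the trypsin-like protease activity, was at 89.8, 92.3 and 90.8 FPKM in L20 and 109.7, 134 and 113 in L30. It was the only one of the 37 with all L30 hens above all L20 hens. Its log2 fold change was 0.38 (SE 0.14, limma adjusted p = 0.184). This call was lost without any one hen other than L30 hen 1, with the replicate block, and with scaling to total recovered reads, where the log2 fold change was 0.14.

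PSMB1, a non-catalytic subunit, was at 86.7, 95.6 and 97.0 FPKM in L20 and 82.7, 79.4 and 84.7 in L30, below in every hen but not DE. PSMB2, also non-catalytic and lowest of the beta ring by FPKM, was at 14.1, 13.8 and 14.2 in L20 and 13.7, 14.7 and 15.9 in L30, and the groups overlapped. PSMB4 overlapped by a single hen, with a ratio of means of 0.803. The FPKM of PSMA7 and PSMB2 were low beside the other core genes although their reads were not: the length implied by reads and FPKM was about 5.63 kb for PSMA7 and 5.42 kb for PSMB2, against 0.806 to 1.66 kb for the other 10 core genes. Among the core proteases, PSMB7 was the only one listed. PSMB5, PSMB6 and the immunoproteasome genes PSMB8, PSMB9 and PSMB10 had no entry under these names and were not analysed here.

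**Figure D2:**
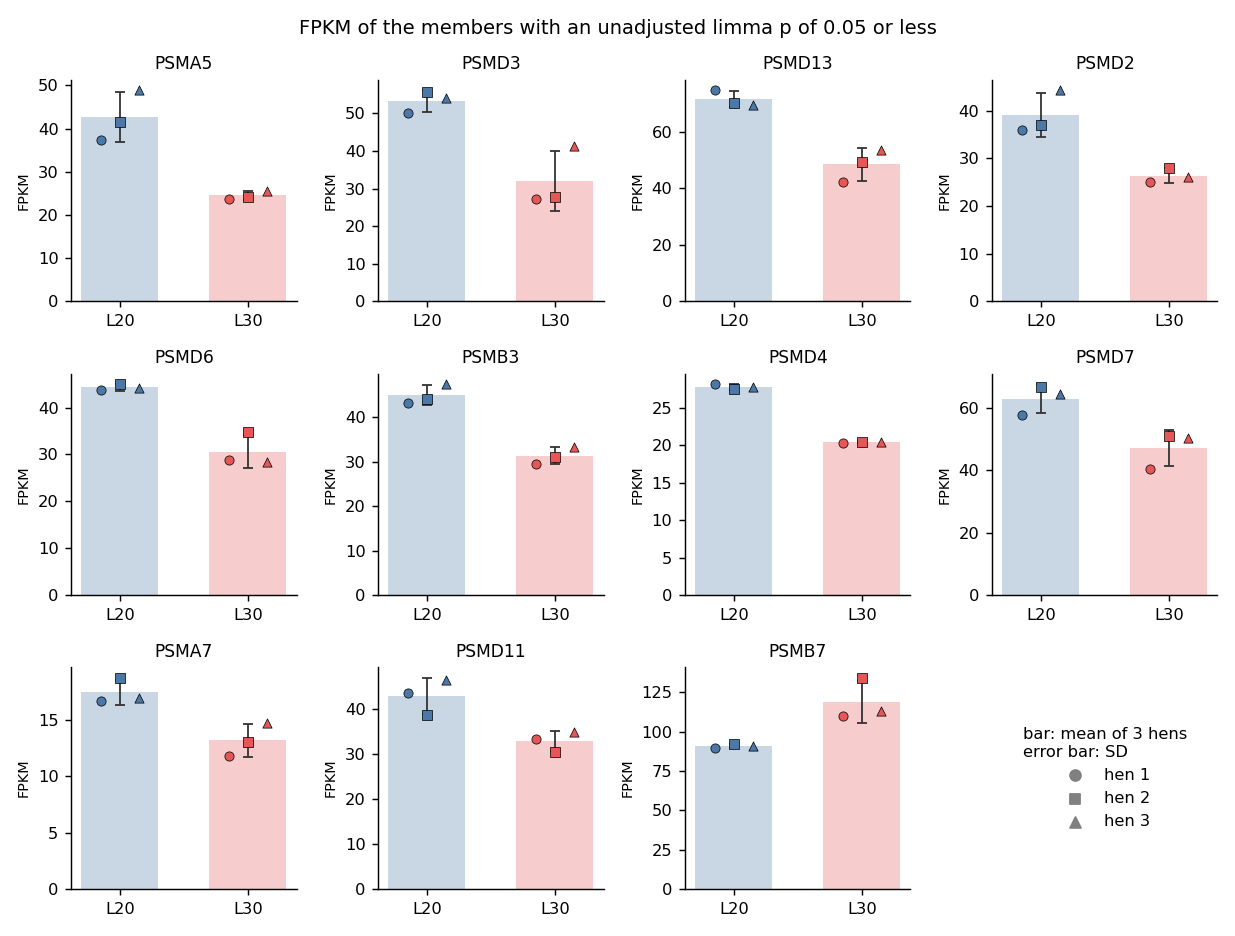
FPKM (y axis, from 0) of the 11 DE genes in the L20 and L30 groups (x axis), with bars for the mean of 3 hens, error bars for the SD and 1 symbol per hen. In all 11 panels the symbols of the groups do not overlap, and PSMB7 is the only panel with higher L30 hens.

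The regulatory particle held 7 of the 10 genes that fell. All 17 of its entries had a negative log2 fold change by limma, against 54.7% of all genes tested, and 16 of 17 by edgeR and DESeq2, where PSMC3 was at 0.02 and 0.01. Of the 17, 7 (41.2%) fell against 11.7% of all genes tested, none rose, and 10 had all L30 hens below all L20 hens against 16.0%. The median log2 fold change was -0.29. PSMD4 and PSMD12 appear with 2 entries each, and without the lower of each pair 7 of 15 fell with a median of -0.37.

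None of the 5 listed ATPase genes of the base was DE by limma, where 11.7% of all genes tested fell and 11.0% rose. Their ratios of means were 0.816 to 0.951. Their median log2 fold change was -0.14, against -0.04 over all genes tested. PSMC1, the highest of the base by FPKM, was at 48.2, 52.7 and 51.9 in L20 and 42.8, 43.4 and 38.5 in L30. It was the only ATPase gene whose groups did not overlap, 1 of 5 against 16.0% of all genes tested with all L30 hens below. PSMC2, PSMC3, PSMC5 and PSMC6 had ratios of 0.908, 0.951, 0.927 and 0.897. PSMC5 is listed with the same span as A2ML1, FTSJ3 and SMARCD2, and PSMC3 and PSMD1 each with a microRNA entry, so their reads may be divided. PSMC4 had no entry under this name and was not analysed here.

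Of the 4 base entries that are not ATPases, 2 fell, against 11.7% of all genes tested, with a median log2 fold change of -0.40 over the 4. Whether they differ from the ATPases was not tested. PSMD2 (ENSGALG00000006294, chromosome 9, 15363724 to 15369726), the large scaffold that receives shuttle proteins, was at 35.9, 37.1 and 44.3 FPKM in L20 and 25.01, 28.1 and 26.1 in L30. Its log2 fold change was -0.54 (SE 0.14, limma adjusted p = 0.0824), and the DE call held without any one hen. PSMD4 encodes an intrinsic ubiquitin receptor. Its higher entry (ENSGALG00000028505) was at 28.2, 27.5 and 27.7 FPKM in L20 and 20.3, 20.5 and 20.5 in L30, among the smallest spreads of the set, with a log2 fold change of -0.43 (SE 0.10, limma adjusted p = 0.0810). The call held without any one hen, but 20 other entries of the table are listed with the same span on chromosome 25. The lower entry (ENSGALG00000026320) was at 1.79, 1.59 and 2.43 in L20 and 1.16, 1.44 and 2.50 in L30, from 23 to 59 reads per hen, and its groups overlapped. It stood at 5.71 to 12.2% of the higher entry in each hen. PSMD1, the other large scaffold, was at 49.9, 34.4 and 46.0 in L20 and 26.2, 33.5 and 40.1 in L30 and was not DE.

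The lid was the class in which most members fell. Of its 8 entries 5 fell against 11.7% of all genes tested, 7 had all L30 hens below all L20 hens against 16.0%, all 8 had a negative log2 fold change and the median was -0.39. Under the planned scalings, filters, tests and left-out hens, 3 to 6 of its entries (7 tested with the strictest filter) were DE and lower. It was 3 with edgeR, against 1121 of 11199 genes tested, and 6 without a filter, against 1540 of 14078. All 8 were DE and lower only with scaling to total recovered reads, where 2581 of 9751 genes tested were too. No lid entry was DE and higher under any of these.

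PSMD3 (ENSGALG00000022293, chromosome 27, 4314506 to 4318013), a scaffold subunit of the lid, was at 50.2, 55.8 and 54.0 FPKM in L20 and 27.2, 27.9 and 41.3 in L30. L30 hen 3 lay closer to the L20 hens than the other two did, yet below them all. Its mean fell from 53.3 ± 2.82 to 32.1 ± 7.96 (SD, n = 3), with a log2 fold change of -0.74 (SE 0.19, limma adjusted p = 0.0881). PSMD13 (ENSGALG00000004219, chromosome 5, 1616920 to 1625767), a further scaffold and the lid gene with the highest FPKM, was at 74.8, 70.4 and 69.5 in L20 and 42.3, 49.4 and 53.7 in L30. Its log2 fold change was -0.56 (SE 0.14, limma adjusted p = 0.0850). PSMD6 (ENSGALG00000007315, chromosome 12, 13595352 to 13601477) was at 43.7, 45.0 and 44.2 in L20 and 28.7, 34.7 and 28.4 in L30, with a log2 fold change of -0.52 (SE 0.13, limma adjusted p = 0.0835). These 3 scaffold genes were DE without any one hen.

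PSMD7, the inactive partner of the deubiquitinase PSMD14, was at 57.7, 66.6 and 64.5 FPKM in L20 and 40.4, 50.9 and 50.2 in L30. Its log2 fold change was -0.41 (SE 0.15, limma adjusted p = 0.176). The call was lost with edgeR and without L20 hen 2, L20 hen 3 or L30 hen 1. PSMD11, a scaffold subunit, was at 43.7, 38.7 and 46.6 in L20 and 33.3, 30.5 and 35.0 in L30, with a log2 fold change of -0.37 (SE 0.13, limma adjusted p = 0.172). This call was lost with edgeR, DESeq2, median-ratio scaling and the replicate block. It was also lost without L20 hen 1, L20 hen 3, L30 hen 1 or L30 hen 2. PSMD14 itself overlapped between groups, at 21.1, 24.6 and 24.7 in L20 and 20.2, 22.9 and 17.3 in L30.

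Both entries of PSMD12, a scaffold subunit, lay lower in every L30 hen without being DE. The higher entry (ENSGALG00000026225) was at 28.4, 23.8 and 25.6 FPKM in L20 and 21.6, 21.1 and 21.7 in L30. The lower entry (ENSGALG00000003700) was at 5.36, 4.56 and 4.86 in L20 and 4.08, 4.02 and 4.29 in L30. The lower stood at 18.8 to 19.8% of the higher in each hen, so the entries moved nearly in parallel. RefSeq lists 1 chicken gene under each of the names PSMD4 and PSMD12, and whether reads were shared between near-identical copies is uncertain.

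The balance between the summed FPKM of the core genes and of the regulatory genes differed between groups. The median log2 fold change was -0.23 for the core and -0.29 for the regulatory genes. The summed FPKM of the 12 core genes was 740.5, 788 and 840 in the L20 hens and 662, 735 and 715 in the L30 hens, a ratio of means of 0.892. The summed FPKM of the 17 regulatory entries was 633, 628 and 665 in L20 and 452, 517 and 522 in L30, a ratio of 0.775. In neither sum did the groups overlap. The core sum over the regulatory sum was 1.17, 1.26 and 1.26 in the L20 hens and 1.46, 1.42 and 1.37 in the L30 hens, or 1.23 ± 0.052 against 1.42 ± 0.047 (SD, n = 3). A scaling of a whole library cancels in this ratio. With 3 hens against 3 an exact permutation test cannot go below p = 0.1, so the ratio is given as a description. PSMB7 alone rose within the core and is among the highest terms of its sum. Its mean was 91.0 in L20 and 119 in L30, so part of the difference in the ratio comes from it. The DE call of PSMB7 itself depended on single hens. The ratio without PSMB7 was not computed, so whether the balance of the other core genes differed between groups is not shown.

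The median over genes, which no single abundant gene sets, also separated the groups. For the core it placed the L30 hens in another order than the sum did. Relative to the L20 mean, the median log2 level of the core genes was -0.09, 0.00 and 0.07 in the L20 hens and -0.30, -0.21 and -0.17 in the L30 hens. That of the regulatory genes was -0.02, -0.03 and 0.05 in L20 and -0.42, -0.31 and -0.30 in L30. All genes tested had medians of -0.03 to 0.01 in L20 and -0.08, -0.05 and -0.04 in L30. Whether the core and regulatory fold changes differ was not tested, because genes are not replicates.

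**Figure D3:**
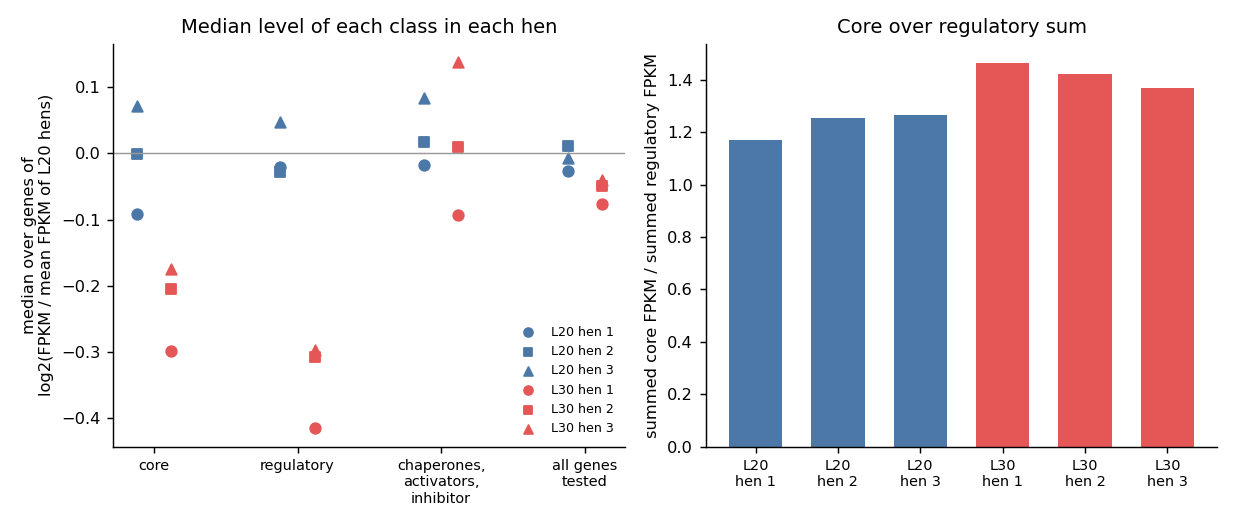
Left, the median over genes of the log2 ratio of each hen's FPKM to the L20 mean (y axis) for the core, the regulatory particle, the chaperones, activators and inhibitor, and all genes tested (x axis), 1 symbol per hen. Right, the summed core FPKM over the summed regulatory FPKM in each hen (y axis from 0), which was 1.17 to 1.26 in L20 (blue) and 1.37 to 1.46 in L30 (red).

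None of the 8 chaperones, activators and inhibitors was DE by limma, where 11.7% of all genes tested fell and 11.0% rose. Their median log2 fold change was -0.02, against -0.04 over all genes tested. The chaperones that help build the core were the most variable. PSMG2 was at 18.6, 15.02 and 20.5 FPKM in L20 and 8.63, 7.46 and 21.2 in L30, so that L30 hen 3 lay above every L20 hen while the other L30 hens lay below. Its log2 fold change was -0.63 (SE 0.37, limma adjusted p = 0.363). Without L30 hen 3 it became -1.07 with a ratio of 0.446 (limma adjusted p = 0.0399), which meets the SDE rule on 2 L30 hens. PSMG3 was at 11.9, 18.9 and 20.2 in L20 and 11.6, 12.8 and 9.59 in L30, overlapping by 1 hen, with a log2 fold change of -0.52 (SE 0.22, limma adjusted p = 0.231). Their partner PSMG1 is listed under the older name DSCR2, outside the name rule, at 5.07, 4.82 and 4.49 in L20 and 4.23, 5.002 and 5.57 in L30, with a log2 fold change of 0.03.

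The base chaperones PSMD5, PSMD9 and PSMD10 dissociate from the finished particle and are not subunits of it despite their names. PSMD9 was at 25.4, 27.3 and 22.1 FPKM in L20 and 24.1, 27.1 and 30.4 in L30. PSMD10, also known as gankyrin, was at 10.8, 10.01 and 8.84 in L20 and 9.78, 10.2 and 10.4 in L30. Both overlapped between groups, as did PSMD5 with a ratio of 0.884. Of the proteins that cap the core in place of the regulatory particle, PSME3, a nuclear activator, was at 21.5, 27.4 and 23.8 in L20 and 22.0, 23.8 and 22.9 in L30. PSME4, an activator of large size, was at 9.47, 8.72 and 11.4 in L20 and 10.8, 10.3 and 17.2 in L30, with L30 hen 3 apart from the other hens. PSMF1, which binds the core and inhibits it in the test tube, had a ratio of 1.08. PSME1, PSME2, PSMD8 and PSMG4 had no entry under these names and were not analysed here.

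Partners of the proteasome that carry other names were read from a list of 34 names, of which 26 were in the table. The list was set with earlier results of these data known. Of the 26, 8 fell against 11.7% of all genes tested and 3 rose against 11.0%, 10 had all L30 hens below against 16.0% and 6 had all above against 14.0%, and the median log2 fold change was -0.15. The count of 11 depended on single hens. It was 2 without L20 hen 3, 3 without L30 hen 1, 6 without L30 hen 2 and 7 without L20 hen 2. DE genes over all genes tested numbered 2213 with every hen kept, and 1555, 1897, 1642 and 1878 in these fits.

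The list holds further parts of the particle itself and an assembly factor of the core. ADRM1, a ubiquitin receptor on the base, was at 52.2, 45.0 and 46.7 FPKM in L20 and 34.8, 39.9 and 38.2 in L30 and fell (log2 fold change -0.34, SE 0.13, limma adjusted p = 0.193). SHFM1, the smallest lid subunit, was at 28.3, 32.2 and 31.6 in L20 and 22.0, 26.1 and 22.6 in L30 and fell (-0.37, SE 0.13, limma adjusted p = 0.164). POMP, which guides the closing of the core during its assembly, was at 45.5, 50.5 and 58.8 in L20 and 36.3, 40.3 and 30.7 in L30 and fell (-0.52, SE 0.16, limma adjusted p = 0.138). For these 3 genes every L30 hen was below every L20 hen. Each call was lost without at least 2 of the hens: ADRM1 kept its call without 1 hen only (L20 hen 2), SHFM1 without 2 hens and POMP without 4. The call of ADRM1 was also lost with edgeR, DESeq2 and median-ratio scaling, and that of SHFM1 with edgeR without a filter. All 3 calls were lost with the replicate block.

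The other 5 that fell act on ubiquitin chains or on assembly. They were USP14, a deubiquitinase on the base, PAAF1, a chaperone of the base, VCP, an ATPase that extracts ubiquitinated proteins, its cofactor NPLOC4, and the shuttle protein UBQLN4. Their log2 fold changes were between -0.56 for UBQLN4 and -0.35 for USP14. VCP was at 43.7, 58.7 and 55.9 FPKM in L20 and 34.7, 39.8 and 37.2 in L30 (-0.48, SE 0.16, limma adjusted p = 0.145). Every L30 hen was again below every L20 hen. With each hen left out in turn, VCP kept its call without 3 of the hens, PAAF1, NPLOC4 and UBQLN4 without 2 and USP14 without 1. The calls of USP14, PAAF1 and NPLOC4 were also lost with edgeR and DESeq2. Those of USP14 and NPLOC4 were lost with median-ratio scaling too, and that of USP14 with the replicate block.

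The genes that rose were RAD23B, KIAA0368 and UBQLN1, and the first and second were SDE. RAD23B, a shuttle protein that brings ubiquitinated substrates to the proteasome and has a role in DNA repair, was at 24.6, 20.3 and 22.5 FPKM in L20 and 132, 145 and 99.1 in L30. The L30 hens were thus several times above all L20 hens, with a ratio of 5.59 and a log2 fold change of 2.42 (SE 0.18, limma adjusted p = 0.00338). Its adjusted p without any one hen was at most 0.0265. KIAA0368, the gene of the proteasome adaptor ECM29, was at 6.64, 4.16 and 6.10 in L20 and 11.5, 17.1 and 11.9 in L30, a ratio of 2.40 with a log2 fold change of 1.13 (SE 0.21, limma adjusted p = 0.0485). It was DE without any one hen, but its adjusted p was then 0.0645 to 0.150, so the SDE call was lost each time. UBQLN1, a shuttle protein, was at 12.5, 18.9 and 14.6 in L20 and 20.0, 21.8 and 19.5 in L30 (0.41, SE 0.17, limma adjusted p = 0.219). Its call was lost without any one hen other than L20 hen 2. The call was also lost with the replicate block, upper-quartile scaling and scaling to total recovered reads.

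NFE2L1, the transcription factor known in mammals for raising proteasome genes when the proteasome is inhibited, was at 28.8, 21.8 and 28.9 FPKM in L20 and 19.7, 20.3 and 22.4 in L30, overlapping by 1 hen and not DE. NFE2L2, a related factor of the oxidative stress response, was at 25.2, 19.7 and 23.5 in L20 and 34.3, 21.4 and 28.5 in L30 and overlapped as well. UBB, a ubiquitin gene, ranged from 875 to 3748 over the hens with the groups overlapping.

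**Figure D4:**
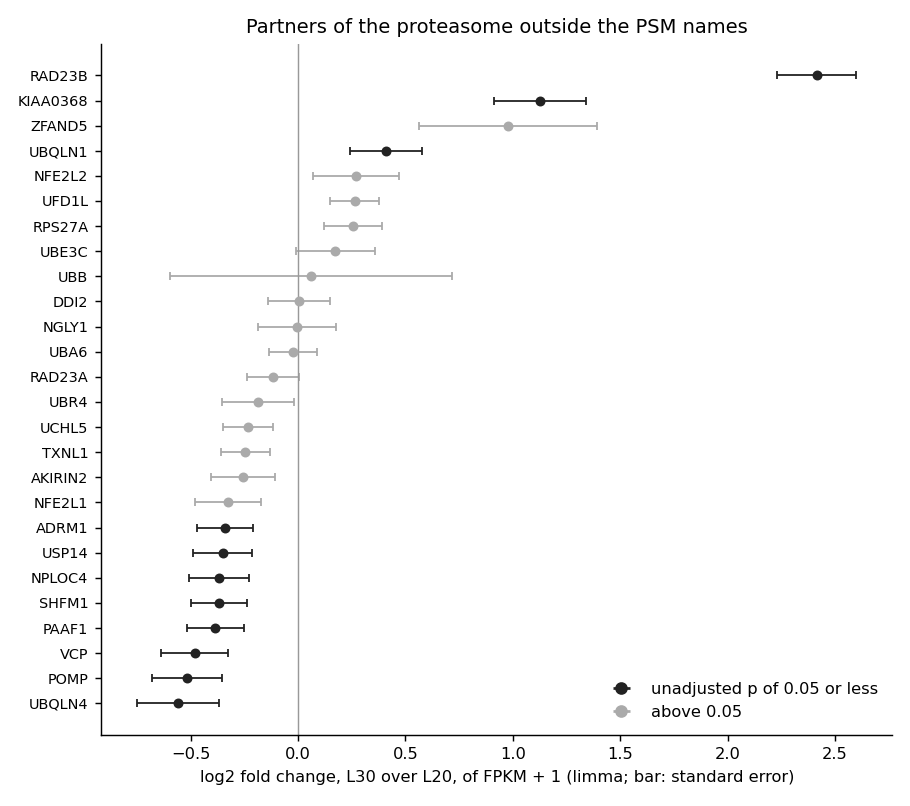
Log2 fold change of FPKM + 1, L30 over L20 (x axis), of the 26 listed partners (y axis), with bars for the standard error and black symbols for the 11 DE genes. RAD23B at 2.42, KIAA0368 at 1.13 and ZFAND5 at 0.98, which was not DE, stand to the right. The 8 that fell lie between -0.56 and -0.34.

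Markers of other liver cells differed between the groups too. In bulk tissue, fewer cells of a type and less RNA per cell cannot be told apart. The summed FPKM of the leukocyte markers was 561 to 671 in L20 and 408 to 512 in L30, with 4 of 6 tested entries DE and lower, against 11.7% of all genes tested. Most of this sum was CD74, at 494 to 614 in L20 and 368 to 479 in L30. CD74 was not DE, although every L30 hen was below every L20 hen. The endothelial markers summed to 52.7 to 65.6 in L20 and 23.4 to 42.3 in L30, with 2 of 3 DE and lower, against the same 11.7%. The fibroblast and stellate sums overlapped, at 75.7 to 93.2 in L20 and 61.2 to 82.3 in L30. Of their 3 entries 2 were DE and lower, against the same 11.7%. DCN, the highest of them by FPKM, was not DE (ratio of means 1.02). The hepatocyte markers summed to 40337 to 43504 in L20 and 23131 to 33096 in L30, with 3 of 5 DE and lower (APOA1, FGA and FGB, against the same 11.7%) and ALB DE and higher. The sums of the erythrocyte, bile duct and muscle markers overlapped between groups too, and no marker entry was at 0 in every hen. The part of these cell types in the proteasome differences was not tested.

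The genes are spread over the genome. The 38 members lie on 18 chromosomes and 1 scaffold, with 7 on chromosome 5, 6 on chromosome 27 and 3 on chromosome 25. Leaving out the 5 members whose listed span is shared with another entry left 32 subunits and regulators, of which 8 fell against 11.7% of all genes tested, 1 rose against 11.0%, and 14 had all L30 hens below all L20 hens against 16.0%.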

How the data were processed

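Liver mRNA of 3 L20 and 3 L30 hens was sequenced from libraries made with a kit that does not mark strand. Per the methods and the submitters' processing notes, reads were mapped to galGal4 with TopHat2 2.0.9 and counted per gene, and the authors deposited FPKM per gene and hen. Beside it stands a deposited signal, namely read counts that had been divided by a factor for the library. Dividing by the value of 1 read gave whole reads (within 0.1 read) for at least 99.856% of low values in each library. A unit check of the deposited signal accepted this recovery for L20 hens 1 and 2 and L30 hen 1 and rejected it for L20 hen 3 and L30 hens 2 and 3, where 1 or 2 values lay below 1 read. Tests on recovered reads are therefore alternatives only. The deposited FPKM per read followed the factor of each library and not the total of reads: relative to L20 hen 1 it was 1.47 in L30 hen 2, where the factor was 1.48 and the inverse total 1.05. Counting error is small for most of these genes, which had 23 to 3718 reads per hen, but the recovered reads are amplified fragments.

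Groups were compared with limma 3.58.1 in R 4.3.3 (eBayes with a trend) on log2(FPKM + 1), keeping genes whose FPKM averaged 1 or more, with Benjamini-Hochberg adjustment over all genes tested. The hens are separate animals, and the main fit did not pair them by replicate number. Alternatives were a pseudocount of 0.1, no filter or a mean FPKM of at least 5, median-ratio and upper-quartile scaling, a replicate block, edgeR 4.0.16 and DESeq2 1.42.0 on recovered reads, each hen left out in turn and, added after the data were seen, scaling to total recovered reads. On simulated data for L30 against L20, limma recovered 77 of 89 genes changed 1.5-fold and 111 of 111 changed 4-fold over 9641 genes. edgeR recovered 79 and 111 over 9592 genes, and DESeq2 77 and 111 over 9725. The simulation gave every gene a dispersion of 0.02. Its 200 changed genes were drawn from those with a mean FPKM of at least 5 and ample reads. The rise of the yolk genes was not modelled. Changes below 1.5-fold were not simulated, while the median ratio of means of the 37 genes was 0.850.

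The members, classes and lists were chosen with earlier results of these data known. Every member is named. Values per hen are given for members that are DE, whose groups do not overlap or that are highest or lowest of their class. DE partners are named. Values per hen are also given for ADRM1, SHFM1, POMP, VCP, RAD23B, KIAA0368 and UBQLN1 of these and for PSMD1, PSMD14, PSMG1, NFE2L1 and NFE2L2, and the range for UBB, chosen after their values were seen. Names were matched to RefSeq symbols for 36 of 36. Sequences were not used here. Tables were handled with Python 3.11.15 and pandas 2.3.3.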

Additional observations from a re-analysis of the deposited data

How the results depend on the processing

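Fold changes were followed for 53 named genes. Of 843 values under the alternatives, 703 kept their direction and side of the threshold, 84 lost the call, 29 gained it and 27 turned direction. None that turned belonged to the 30 genes that were DE, did not overlap or were core chaperones. The 10 genes that turned were not DE, with log2 fold changes between -0.14 and 0.12. With scaling to total recovered reads the log2 fold change was -0.22 for PSMA1, -0.16 for PSMB2, -0.11 for PSMF1, -0.19 for PSMD10, -0.12 for PSMD9, -0.18 for UBB and -0.17 for DSCR2. With upper-quartile scaling it was -0.023 for PSMA1, -0.0051 for PSMD10 and -0.0074 for DSCR2. PSME3 and PSMC3 were at 0.025 and 0.023 with edgeR, 0.023 and 0.021 with edgeR without a filter and 0.015 and 0.011 with DESeq2. Leaving out each hen gave -0.048 to 0.094 for PSMA1, -0.15 to 0.016 for PSME3, -0.0013 to 0.19 for PSMF1, -0.036 to 0.096 for PSMD10, -0.35 to 0.0027 for the lower PSMD4 entry, -0.48 to 0.59 for UBB and -0.047 to 0.12 for DSCR2.

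The 2213 DE genes over all genes became 1459 with a mean FPKM of at least 5, where fewer genes were tested. Of the 37 members, 24 fell, 0 rose and 1 (PSMA5) was SDE with scaling to total recovered reads. There 2581 of 9751 genes tested were DE and lower and 527 DE and higher. The members that fell numbered 9 with median-ratio scaling, against 949 of 9725 genes tested, and 13 with upper-quartile scaling, against 1355 of 9736. They numbered 13 without a filter, against 1540 of 14078, 8 with edgeR, against 1121 of 11199, and 9 with DESeq2, against 1218 of 14063. Leaving out each hen gave 7 to 12 that fell, 0 to 1 that rose and 0 to 1 SDE (PSMG2, without L30 hen 3), and 2 to 8 DE partners. In those fits 770 to 1123 of all genes tested were DE and lower, 785 to 1158 were DE and higher, and 1555 to 2281 were DE in either direction. The ratio of core to regulatory FPKM taken from medians over members was 1.72 in L20 and 2.07 in L30.

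Deviations of same-numbered hens were hardly correlated (r = 0.02, 0.01 and 0.09), against -0.07 to 0.06 for hens of unlike number. From 3 hens a group these values cannot exclude that same-numbered hens were handled together. With the replicate block 8 members fell, against 942 of 9732 genes tested, and 0 rose, against 922. In that fit 6 partners were DE, against 1864 of all genes tested. Not every hen correlated best with its own number.

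With 3 hens a group, changes near 1.5-fold were recovered only in part on simulated data. Smaller changes, such as those of most members, were not simulated. The lower PSMD4 entry rests on at most 59 reads per hen. The sums of FPKM weigh abundant genes most, and entries that share a span or a near-identical copy remain uncertain. The cause of the calls lost or gained under other scalings was not tested.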
